A study of Homo sapiens with 4 samples.

Results

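The baseline difference between HepG2 and HCT116 cells was described here from the vehicle arrays of the series. For each transcript cluster, the log2 signal of the HCT116 vehicle array was subtracted from that of the HepG2 vehicle array, after each array had been centred on its own median. The table holds 48226 transcript clusters, of which 16098 carry 1 gene symbol in the annotation of the array and belong to 14884 distinct genes. HepG2 is an established hepatocellular carcinoma line that received vehicle, labelled 0.39%, and HCT116 is an established colorectal carcinoma line that received 0.3% DMSO according to its label, although the methods of the study give 0.39% for the controls. Both control arrays are therefore vehicle-treated and not untreated, and vehicle strength may differ together with the line. The other 2 of the 4 arrays hold the same lines after 24 h with MP-HX, a plant extract, at 78 µg/mL in HepG2 and 60 µg/mL in HCT116. Every group is 1 array, made from the mixed RNA of 3 cultures, and each tissue is represented by 1 line.

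Hepatocytes secrete most plasma proteins, assemble lipoproteins, make bile acids and carry out much of the metabolism of amino acids, lipids and drugs. Their gene expression is kept by liver-enriched transcription factors, among them the FOXA, ONECUT and HNF families. The colonic epithelium renews itself from Wnt-dependent stem cells in the crypt, and its regional identity rests on CDX2 and on posterior HOX genes. Both lines come from endodermal epithelia, and cancer lines keep only part of the program of their tissue.

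A level below is a log2 signal relative to the median of all clusters on its array, so a level below 0 is dimmer than the median cluster. A difference is HepG2 minus HCT116 on the log2 scale, where 1 is 2-fold. Probes differ in brightness, so levels are compared between arrays and never between genes. Detection calls were not used here. Where the dimmer array lies below its median, the size of the difference is uncertain and the level on the brighter array serves as a lower bound. In bulk RNA, fewer expressing cells and less RNA per cell cannot be told apart.

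Of the 14884 genes, 1200 (8.06%) were at least 2-fold higher in HepG2 and 1739 (11.7%) at least 2-fold lower. The list counts below are to be read beside these shares. Over the named clusters the counts were 1265 (7.86%) and 1832 (11.4%). The share of higher clusters among those past 2-fold was 40.8%, and it was 22.7% without centring, 47.7% after quantile normalization and 48.4% when the arrays were centred on the named clusters alone. The deposited medians were 4.03 in HepG2 and 4.31 in HCT116, and the median difference over all genes after centring was -0.14. With 1 array per group the vehicle pair has no test. The line difference was tested with limma over both treatments, in an additive model of line and treatment on all 4 arrays with 1 residual degree of freedom. At a Benjamini-Hochberg adjusted p under 0.05, 1358 genes (9.12%) were higher and 1695 (11.4%) lower in HepG2. Of the genes past 2-fold on the vehicle arrays, 1012 of those higher and 1248 of those lower passed this test in the same direction. The fit contains the vehicle arrays, so passing it is no independent support for genes picked by their vehicle difference. The limma counts depended on the settings. Over the clusters, the 1419 higher and 1781 lower calls became 34 and 19 when 64 was added to the linear signal. Without the treatment term they became 1079 and 1216. They also fell whenever any 1 of the 4 arrays was left out. Those fits lack the treatment term too and leave 1 line with 1 array, so the effect of an array cannot be told apart.

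The difference was steeper at the HepG2 end. At least 8-fold, 229 genes were higher in HepG2 and 167 lower, and at least 64-fold, 49 were higher and 8 lower. In 41 of those 49 genes the HCT116 array was below its median, and in 6 of the 8 the HepG2 array was.

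**Figure D1:**
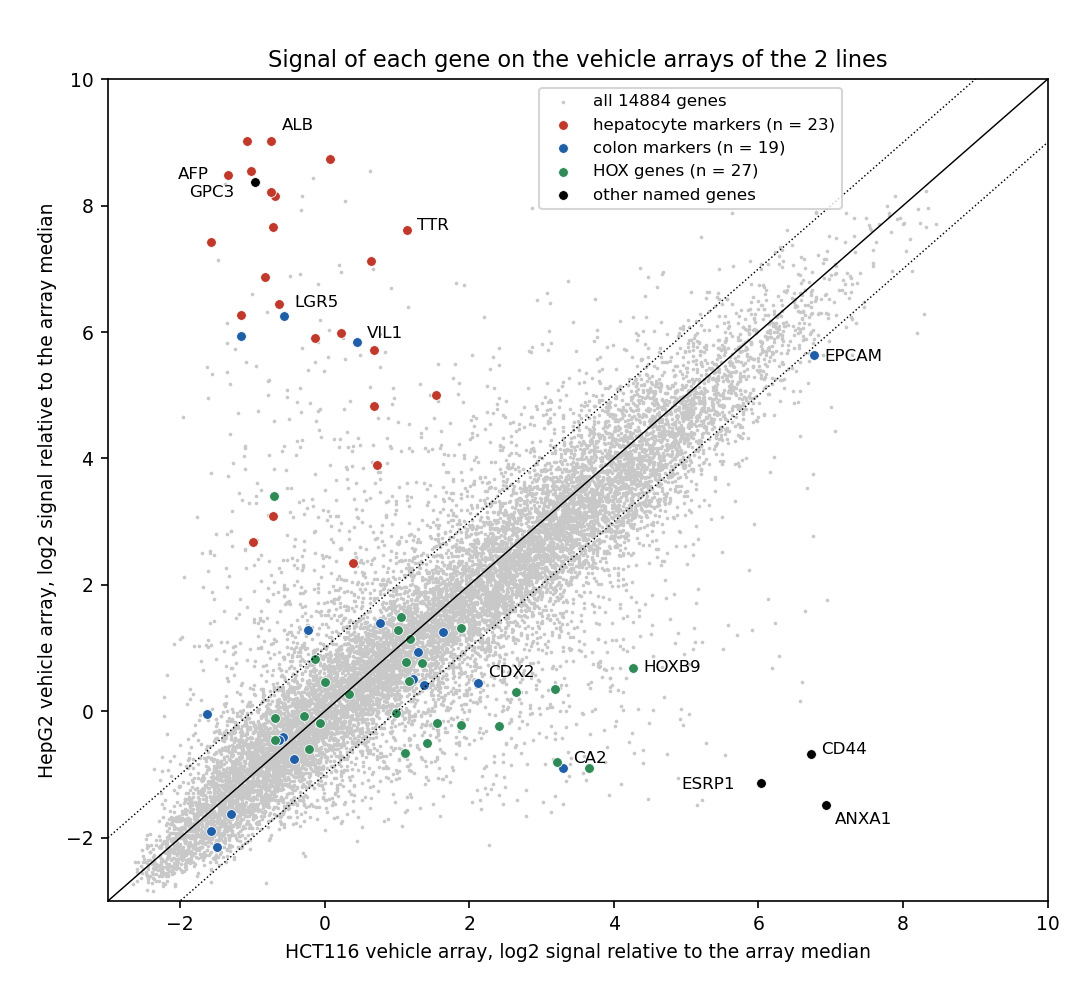
Log2 signal relative to the array median on the HepG2 vehicle array (vertical axis) and the HCT116 vehicle array (horizontal axis), 1 point per gene. The solid line marks equal signal and the dotted lines 2-fold. All 23 hepatocyte markers (red) lie above the upper dotted line, while colon markers (blue) lie on both sides and HOX genes (green) lie mostly on or below the diagonal.

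The hepatocyte markers followed the label of HepG2, in a list chosen with earlier results of these data known. All 23 measured hepatocyte markers were at least 2-fold higher in HepG2, with a median difference of 7.09 beside -0.14 over all genes, and all 23 passed the limma threshold. Their levels ran between 2.34 and 9.03 in HepG2 and between -1.58 and 1.54 in HCT116. Of the 23, 14 were below the array median in HCT116. ALB, which encodes serum albumin, had a level of 9.03 in HepG2 and -0.74 in HCT116, a difference of 9.77 with a bound of at least 9.03. AFP, the fetal counterpart of albumin and a clinical marker of liver cancer, read 8.49 in HepG2 and -1.34 in HCT116, a difference of 9.83. APOH, a phospholipid-binding plasma glycoprotein, was the gene furthest apart, with 9.02 in HepG2 and -1.08 in HCT116. For ALB, AFP and APOH alike the limma adjusted p was 0.000312, and the differences on the MP-HX arrays were 10.08, 9.69 and 10.16. The marker nearest to the threshold was HPX, the heme-binding hemopexin, with 2.34 in HepG2 and 0.39 in HCT116 (limma adjusted p = 0.0159).

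Fibrinogen, the clot-forming plasma protein, is built from 3 chains whose genes neighbour each other on chromosome 4, and all 3 were more than 64-fold higher in HepG2. FGA read 7.66 in HepG2 and -0.72 in HCT116. FGB read 6.45 in HepG2 and -0.64 in HCT116. FGG read 7.42 in HepG2 and -1.58 in HCT116. The chains thus differed by 7.09 to 9.0, and on the MP-HX arrays by 6.61 to 7.90.

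The promoters of AFP and FGA, and that of AHSG, which encodes the carrier fetuin A (8.21 in HepG2 and -0.74 in HCT116), are printed because they held motifs of liver-enriched factors. Each is the RefSeq window on GRCh38.p14 of 250 bases before and 50 after the start of the gene, at chr4:73435971-73436270 on the plus strand for AFP, chr4:154590693-154590992 on the minus strand for FGA and chr3:186612810-186613109 on the plus strand for AHSG. Capitals mark matches, on either strand, to the HNF1 letters GTTAATNATT, the HNF4 letters CAAAGTCC, the C/EBP letters TTGCNNAA or the FOXA letters TGTTTAC.
AFP: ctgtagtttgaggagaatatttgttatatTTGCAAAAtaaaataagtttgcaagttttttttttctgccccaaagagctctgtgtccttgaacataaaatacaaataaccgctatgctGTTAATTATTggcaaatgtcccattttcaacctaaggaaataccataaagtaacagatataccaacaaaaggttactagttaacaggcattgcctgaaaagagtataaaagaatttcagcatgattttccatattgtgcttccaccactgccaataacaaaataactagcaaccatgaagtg
FGA: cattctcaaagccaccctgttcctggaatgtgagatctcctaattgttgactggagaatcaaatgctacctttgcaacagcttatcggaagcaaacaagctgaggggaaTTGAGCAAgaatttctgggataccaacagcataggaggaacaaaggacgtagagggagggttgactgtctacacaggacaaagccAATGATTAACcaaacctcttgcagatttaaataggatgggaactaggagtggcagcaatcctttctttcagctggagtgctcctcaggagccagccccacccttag
AHSG: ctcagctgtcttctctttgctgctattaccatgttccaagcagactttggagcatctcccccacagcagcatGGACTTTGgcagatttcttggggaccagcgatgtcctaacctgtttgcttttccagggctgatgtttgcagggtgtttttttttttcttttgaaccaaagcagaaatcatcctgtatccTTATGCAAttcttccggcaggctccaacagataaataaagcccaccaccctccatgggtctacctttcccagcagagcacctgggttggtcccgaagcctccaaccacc
The HNF1 match begins 132 bases before the start in AFP and 56 bases before it in FGA, and the HNF4 match begins 178 bases before the start in AHSG. Of the 229 genes at least 8-fold higher in HepG2, 167 had a promoter in the table, and 3 of these (1.8%) held the HNF1 letters, in AFP, FGA and TMED6. The letters were in 0 of the 133 promoters of genes at least 8-fold lower and in 0.293% of all 27305 promoters. The HNF4 letters were in 2.99%, 0% and 1.21% of the same 3 sets, the C/EBP letters in 12.6%, 6.77% and 10.6%, and the FOXA letters in 5.39%, 4.51% and 3.41%. Of the motifs not tied to liver, the CDX2 letters TTTATNG were in 5.99%, 7.52% and 10.1%, the AP-1 letters TGANTCA in 5.39%, 3.76% and 7.76%, and the TATA letters TATAAA, which the CDX2 letters can overlap, in 12%, 9.02% and 12%. The shares also depend on the background: among the 8670 promoters of genes above the array median they were 0.173% for HNF1, 1.05% for HNF4, 7.05% for C/EBP, 2.45% for FOXA, 6.34% for CDX2, 5.11% for AP-1 and 6.16% for TATA. A match is a description of the window, and 3 and 5 promoters are few.

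Other secreted proteins of the liver followed the same direction. Of 25 measured plasma carrier proteins, 22 were at least 2-fold higher in HepG2 and 0 lower (median difference 3.68), and 21 passed limma. TF, the iron carrier transferrin, read 8.15 in HepG2 and -0.69 in HCT116. TTR, which carries thyroid hormone and retinol-binding protein, read 7.62 in HepG2 and 1.13 in HCT116. ITIH2, a heavy chain of the inter-alpha-trypsin inhibitors that bind hyaluronan, read 8.43 in HepG2 and -0.16 in HCT116, whereas ITIH1 read 0.67 in HepG2 and 0.57 in HCT116. The protease inhibitor A2M, an alpha-2-macroglobulin outside the list, read 8.34 in HepG2 and -1.38 in HCT116. Not every carrier was marked: the acute phase protein SAA1 was below the median on both arrays, at -0.57 in HepG2 and -0.74 in HCT116. ORM1 and ORM2, paralogous acid glycoproteins whose probes can cross-hybridise, read 2.68 and 6.27 in HepG2, and -1.0 and -1.16 in HCT116.

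Coagulation and complement genes split by member. Of 18 coagulation and fibrinolysis genes, 13 were higher in HepG2 and 0 lower (median 3.62). Prothrombin, F2, read 5.71 in HepG2 and 0.68 in HCT116. The anticoagulant protein C, PROC, read 5.60 in HepG2 and 0.04 in HCT116. CPB2, a carboxypeptidase that slows clot lysis, read 5.52 in HepG2 and -1.09 in HCT116. Plasminogen (PLG) and factor IX (F9), in contrast, were below the array median on both arrays, with PLG at -0.73 in HepG2 and -0.85 in HCT116 and F9 at -1.21 in HepG2 and -1.02 in HCT116. Of 16 complement genes, 11 were higher and 1 lower (median 1.99). C3, the central component, read 7.93 in HepG2 and -0.33 in HCT116, and the protease CFI, which cleaves activated C3 and C4, read 5.44 in HepG2 and -1.63 in HCT116. C5, which starts the membrane attack complex, read 5.73 in HepG2 and -1.24 in HCT116, but C9, which forms its pore, was dim on both arrays (-1.24 in HepG2 and -1.34 in HCT116). The exception was CFD, the serine protease factor D, with 1.57 in HepG2 and 3.88 in HCT116 (limma adjusted p = 0.00822). The 2 C4 genes, C4A and C4B, are near-identical copies and cannot be separated, and their differences were 3.93 and 3.99.

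Apolipoproteins and the proteins that load or modify lipoproteins were higher in 12 of 20 and lower in 0 (median 2.89). APOB, the structural protein of low density lipoprotein, read 8.54 in HepG2 and -1.02 in HCT116. MTTP, which loads lipid onto it, read 4.60 in HepG2 and -0.71 in HCT116, and LCAT, which esterifies cholesterol on high density lipoprotein, read 5.64 in HepG2 and 2.04 in HCT116. APOA1 was less far apart than APOA2, with differences of 3.17 and 8.66. APOE, at 1.86 in HepG2 and 1.04 in HCT116, stayed under 2-fold.

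**Figure D2:**
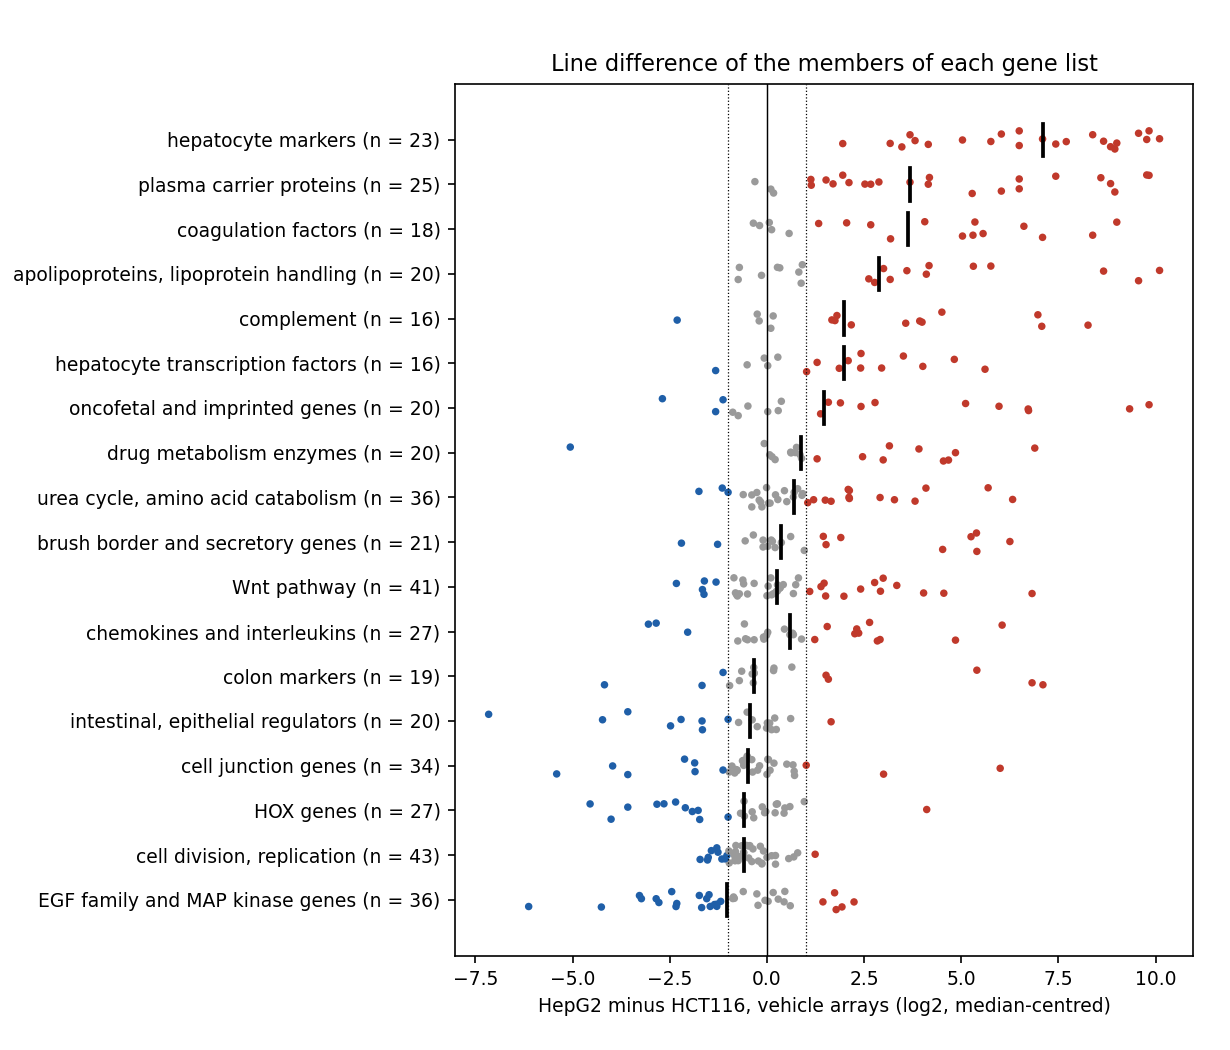
Difference between the vehicle arrays (HepG2 minus HCT116, log2) of each measured member of 18 gene lists, with the number of members in brackets. Points are genes, red where at least 2-fold higher in HepG2, blue where at least 2-fold lower and grey otherwise; black bars are list medians. The hepatocyte marker median is 7.09 and the median of EGF family and MAP kinase genes is -1.04.

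The transcription factors behind liver identity were higher in HepG2 for 11 of 16 measured members, with 1 lower (median 1.98), and 9 passed limma. PROX1, a homeobox factor of the embryonic liver, read 5.08 in HepG2 and -0.53 in HCT116. HLF, a PAR-domain factor of circadian liver expression, read 6.75 in HepG2 and 1.93 in HCT116. ONECUT1, which acts early in hepatocyte differentiation, read 3.54 in HepG2 and -0.47 in HCT116. All 3 kept the direction on the MP-HX arrays, at 4.86, 4.41 and 2.40. The pioneer factors FOXA1 and FOXA2 differed by 3.51 and 2.09, while their relative FOXA3 read 2.01 in HepG2 and 1.73 in HCT116. GATA4 read 1.77 in HepG2 and -1.18 in HCT116, but GATA6, an endodermal factor of the same family, read 2.84 in HepG2 and 2.91 in HCT116. DBP, a PAR-domain factor like HLF, went the other way with 2.61 in HepG2 and 3.93 in HCT116, a difference of -1.32 that shrank to -0.08 on the MP-HX arrays and did not pass limma (adjusted p = 0.203). HHEX and PPARA, past 2-fold on the vehicle arrays, also missed the limma threshold (adjusted p = 0.156 and 0.0832).

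**Figure D3:**
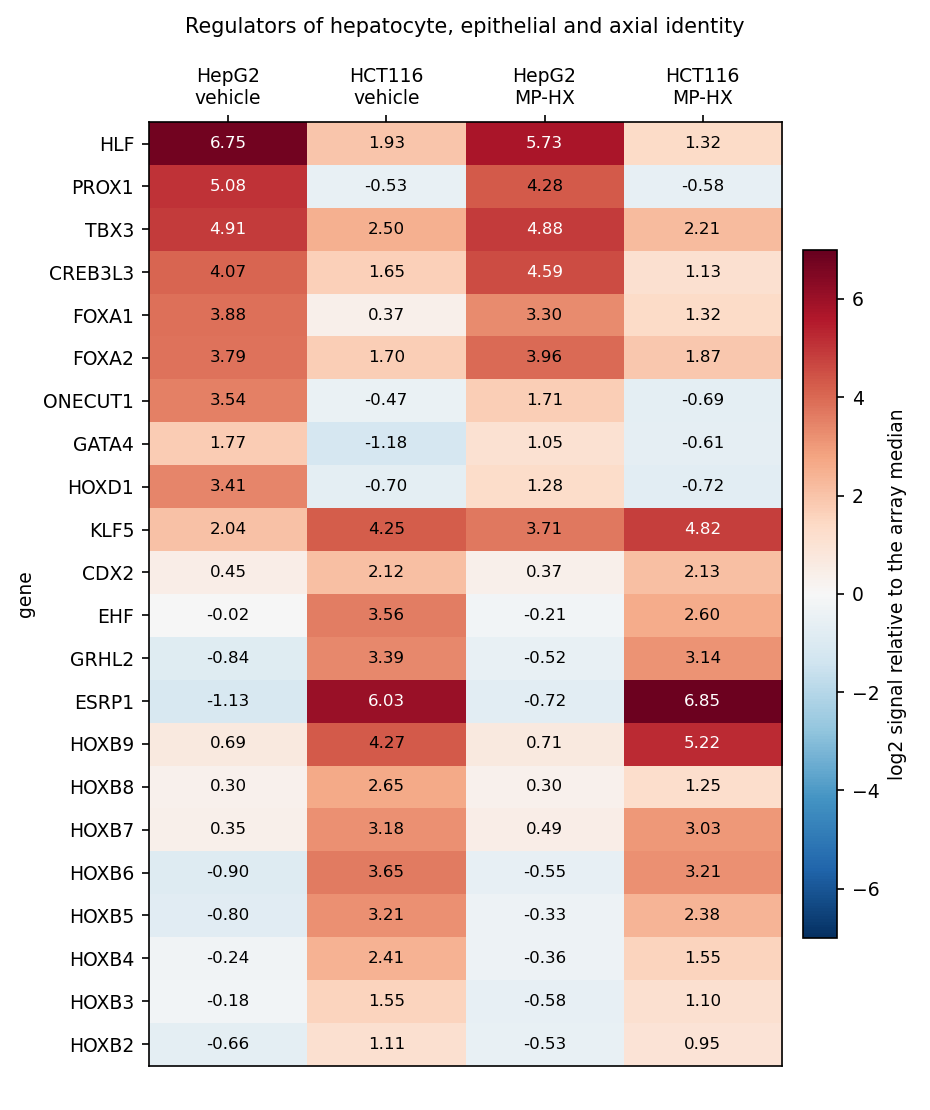
Log2 signal relative to the array median of 22 regulators on the 4 arrays, from left HepG2 vehicle, HCT116 vehicle, HepG2 MP-HX and HCT116 MP-HX. Red is above and blue below the array median; the number in each cell is the level. The figure shows only a part of the measured regulators. The liver factors shown at the top are brighter on both HepG2 arrays, and ESRP1 and the HOXB genes shown at the bottom on both HCT116 arrays. Regulators with little difference on the vehicle arrays, such as FOXA3, GATA6, GRHL1 and OVOL2, are not shown. DBP, which went the other way, HOXB1 and HOXB13 are not shown either.

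Metabolic gene groups were more mixed than the secreted proteins. Of 36 genes of the urea cycle and amino acid catabolism, 14 were higher in HepG2 and 3 lower (median 0.69). HPD, which acts in tyrosine breakdown, read 6.99 in HepG2 and 0.67 in HCT116. KYNU, a kynurenine pathway enzyme of tryptophan breakdown, read 4.38 in HepG2 and -1.31 in HCT116. The urea cycle enzyme OTC was below the median on both arrays, at -0.59 in HepG2 and -1.64 in HCT116, and thus past 2-fold between values that carry little signal. Of the 3 lower genes, ASNS, NAGS and ACMSD, only ACMSD passed limma, and it too was below the median on both arrays, at -1.57 in HepG2 and -0.57 in HCT116.

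In glucose metabolism 5 of 14 genes were higher and 2 lower, and the lower ones were the most distant. LDHB, the heart-type lactate dehydrogenase subunit, read -1.48 in HepG2 and 5.15 in HCT116, a difference of -6.63. HK1, the ubiquitous hexokinase, read -0.20 in HepG2 and 3.47 in HCT116. HKDC1, a further hexokinase family member, had the opposite pattern, with 3.36 in HepG2 and 0.41 in HCT116. GPD2, the mitochondrial glycerol phosphate dehydrogenase, lay outside the list and read -1.41 in HepG2 and 5.22 in HCT116. These genes passed limma, with adjusted p between 0.000524 and 0.00258 for the 3 list members.

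Genes of fatty acid metabolism were higher in 12 of 30 and lower in 1. ELOVL2, an elongase of long polyunsaturated fatty acids, read 6.32 in HepG2 and -0.80 in HCT116. The lower gene was CPT1A, the entry enzyme of mitochondrial fatty acid oxidation, at 3.98 in HepG2 and 5.77 in HCT116, which missed the limma threshold (adjusted p = 0.199), and with MP-HX HepG2 read 4.96 and HCT116 5.01. Cholesterol synthesis genes were higher in 6 of 18 and lower in 2, and only 3 of these 8 passed limma. The exception by size was INSIG1, the sterol-regulated brake on the SREBP pathway, at -0.82 in HepG2 and 4.40 in HCT116, whereas its paralog INSIG2 read 4.89 in HepG2 and 3.09 in HCT116.

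The bile acid list had 8 measured genes, of which 5 were higher and 2 lower. FGF19, the gut hormone that signals to the liver to slow bile acid synthesis, read 0.95 in HepG2 and 4.18 in HCT116. Both parts of its receptor ran the other way: FGFR4 read 4.97 in HepG2 and 3.04 in HCT116, and the co-receptor KLB read 5.24 in HepG2 and -0.77 in HCT116. All 3 passed limma (adjusted p = 0.00397, 0.00845 and 0.00676).

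Among 20 measured drug metabolism enzymes 9 were higher and 1 lower. ADH6, an alcohol dehydrogenase, read 5.33 in HepG2 and -1.56 in HCT116. CES1, the liver carboxylesterase, read 5.44 in HepG2 and 0.77 in HCT116, and its other cluster differed by 5.26. Of 14 glutathione S-transferases, 6 were higher and 2 lower. The alpha class genes GSTA1 and GSTA2, which are near-identical, differed by 3.91 and 4.85, and GSTP1, the pi class enzyme, read 1.59 in HepG2 and 6.65 in HCT116, a difference of -5.06. The theta class genes went opposite ways, with GSTT1 at 3.33 in HepG2 and 0.87 in HCT116 and GSTT2 at 0.43 in HepG2 and 3.64 in HCT116. Of the metallothioneins, MT1G read 6.6 in HepG2 and -1.01 in HCT116 and MT1F read 6.81 in HepG2 and 3.36 in HCT116, while MT1X and MT2A differed by -0.14 and 0.21. These genes are close paralogs, so cross-hybridisation may blur them. HAMP, which encodes the iron hormone hepcidin, read 6.78 in HepG2 and 1.82 in HCT116.

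Genes of fetal liver and imprinted growth genes were higher in 11 of 20 and lower in 3, and all 14 passed limma. GPC3, a heparan sulfate proteoglycan of fetal liver and liver cancer, read 8.37 in HepG2 and -0.96 in HCT116. The RNA-binding proteins LIN28B and IGF2BP1 read 5.36 and 6.95 in HepG2, and -1.36 and 0.22 in HCT116. The paternally expressed genes DLK1 and PEG10 read 6.03 and 7.97 in HepG2, and 0.06 and 2.86 in HCT116. The 3 lower genes were PLAGL1, HMGA2 and EPCAM. PLAGL1, an imprinted zinc finger gene, read 1.84 in HepG2 and 4.53 in HCT116, the chromatin protein gene HMGA2 read 2.70 in HepG2 and 4.02 in HCT116, and EPCAM read 5.64 in HepG2 and 6.77 in HCT116.

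The colon markers did not separate the lines in the direction of the label. Of 19 measured, 5 were at least 2-fold higher in HepG2 and 3 lower, with a median difference of -0.33 beside -0.14 over all genes. CA2, a carbonic anhydrase of surface colonocytes, was the member furthest toward HCT116, with -0.89 in HepG2 and 3.29 in HCT116. The intestinal homeobox factor CDX2 read 0.45 in HepG2 and 2.12 in HCT116 (limma adjusted p = 0.00632). The 5 genes toward HepG2 were A1CF, LGR5, VIL1, TSPAN8 and MYO1A. Of these, TSPAN8 was below the median on both arrays, at -0.05 in HepG2 and -1.63 in HCT116. A1CF, a partner of the apolipoprotein B mRNA editing enzyme that is also made in liver, read 5.94 in HepG2 and -1.16 in HCT116. LGR5, the R-spondin receptor that marks crypt stem cells, read 6.26 in HepG2 and -0.56 in HCT116, and VIL1, the brush border protein villin, read 5.84 in HepG2 and 0.44 in HCT116. Of the 19 markers 10 were below the median in HCT116, and 7 on both arrays, among them KRT20 (-0.41 in HepG2 and -0.58 in HCT116), CEACAM5 (-0.46 in HepG2 and -0.64 in HCT116) and CLCA1 (-1.90 in HepG2 and -1.57 in HCT116). The HCT116 array was therefore distinguished by few of the defining genes of differentiated colon.

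Brush border and secretory genes leaned to HepG2, with 8 of 21 higher and 2 lower. The aminopeptidase ANPEP read 6.19 in HepG2 and -0.06 in HCT116, and the peptidase DPP4 read 6.40 in HepG2 and 1.15 in HCT116. Both are found on intestinal microvilli and on the bile canaliculi of hepatocytes. The membrane-cytoskeleton linker EZR was lower, with 5.99 in HepG2 and 8.19 in HCT116. MSN, moesin, its close relative outside the list, read 0.17 in HepG2 and 6.58 in HCT116.

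The genes furthest below in HepG2 were led by ANXA1, a calcium-dependent membrane-binding protein, with -1.49 in HepG2 and 6.94 in HCT116. CD44, the hyaluronan receptor, read -0.67 in HepG2 and 6.72 in HCT116. ESRP1, an epithelial splicing regulator that acts on CD44 transcripts among others, read -1.13 in HepG2 and 6.03 in HCT116, while its paralog ESRP2 read 4.62 in HepG2 and 4.5 in HCT116. Of 12 annexins, 3 were lower (ANXA1, ANXA2 and ANXA3) and 2 higher (ANXA4 and ANXA9). The other genes among the 15 furthest below were FAR1, MAP7D3, PSTPIP2, ATL3, PLPP2, UGT8, CLDN7 and GPR180, besides GPD2, LDHB, MSN and EREG. The differences of these 15 genes ran between -8.43 and -5.25.

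Epithelial junction genes differed in both directions. Of 34 measured, 3 were higher in HepG2 and 7 lower, and these 10 passed limma. Over all genes 8.06% were higher and 11.7% lower, so the higher count was near the overall share. CLDN7 read 0.88 in HepG2 and 6.29 in HCT116, and CLDN4 read -0.25 in HepG2 and 3.33 in HCT116. CLDN1 had the reverse order, with 5.22 in HepG2 and -0.78 in HCT116, as had CLDN6, a claudin of embryonic epithelia, with 3.03 in HepG2 and 0.03 in HCT116. ST14, the membrane protease matriptase, read 0.70 in HepG2 and 4.67 in HCT116. Of 28 keratins and filament genes, 1 was higher and 5 lower: KRT23 read 5.21 in HepG2 and 3.30 in HCT116, and KRT18 read 5.64 in HepG2 and 6.89 in HCT116, which missed the limma threshold (adjusted p = 0.159). In the matrix list 7 of 19 were higher and 2 lower. FN1, fibronectin, which hepatocytes secrete into plasma, read 8.54 in HepG2 and 0.62 in HCT116, and the proteoglycan SDC2 read 5.82 in HepG2 and -1.36 in HCT116. Its relative GPC4 read 0.01 in HepG2 and 3.25 in HCT116, against GPC3 and GPC6 toward HepG2.

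Of 20 intestinal and epithelial regulators, 1 was higher in HepG2 and 8 lower, and 8 of these 9 passed limma, the exception being HOXB13. GRHL2, a grainyhead factor of epithelial junctions, read -0.84 in HepG2 and 3.39 in HCT116. EHF, an epithelial ETS factor, read -0.02 in HepG2 and 3.56 in HCT116, and the crypt factor KLF5 read 2.04 in HepG2 and 4.25 in HCT116. GRHL1 and OVOL2 differed by 0.07 and 0.01. The gene toward HepG2 was ELF5, with 1.20 in HepG2 and -0.45 in HCT116.

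HOX genes, whose expression records position along the body axis, were mostly lower in HepG2 within the HOXB cluster. Of 27 measured genes 11 were lower and 1 higher, and of the 10 HOXB genes 9 were lower. HOXB9 read 0.69 in HepG2 and 4.27 in HCT116. HOXB6 read -0.90 in HepG2 and 3.65 in HCT116. HOXB5 read -0.80 in HepG2 and 3.21 in HCT116. The anterior end of the cluster was less far apart, with HOXB2 at -0.66 in HepG2 and 1.11 in HCT116, and HOXB1 read 0.46 in HepG2 and 0.00 in HCT116. HOXB13 sat at the threshold, with a difference of -1.0 that was -0.55 on the MP-HX arrays and missed limma (adjusted p = 0.0631). In the HOXC cluster 2 of 7 were lower (HOXC4 and HOXC9), and in the HOXD cluster 0 of 9 were. HOXD1 was higher, with 3.41 in HepG2 and -0.70 in HCT116. HOXA10-AS, a long noncoding RNA of the HOXA cluster, read -0.16 in HepG2 and 4.03 in HCT116.

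Wnt pathway genes were higher in HepG2 in 13 of 41 and lower in 5 (median 0.27), and all 18 passed limma. Several of the higher genes are feedback targets of the pathway. NKD1, an inhibitor induced by Wnt, read 6.23 in HepG2 and 2.20 in HCT116. The secreted inhibitors DKK4 and NOTUM read 3.61 and 5.11 in HepG2, and -0.94 and 2.34 in HCT116. AXIN2, the best known target, read 4.60 in HepG2 and 3.09 in HCT116, and ZNRF3, which removes receptors from the surface, read 4.78 in HepG2 and 3.39 in HCT116. Of 10 Frizzled receptors, FZD4 and FZD5 were higher, and FZD1, FZD2, FZD6 and FZD7 lower.

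Growth factor signalling genes of the EGF family and the MAP kinase response were lower in HepG2 in 18 of 36 and higher in 5, with a median of -1.04. By limma 13 were lower and 5 higher. EREG, an EGF receptor ligand, read 0.47 in HepG2 and 6.6 in HCT116, and the receptor EGFR read 3.09 in HepG2 and 4.44 in HCT116. ERBB3, a partner receptor, went the other way with 4.46 in HepG2 and 2.22 in HCT116. The list holds 3 phosphatases that MAP kinase activity induces. DUSP4 read -0.24 in HepG2 and 4.02 in HCT116, DUSP5 read 1.23 in HepG2 and 4.51 in HCT116, and DUSP6 read 3.96 in HepG2 and 5.51 in HCT116. Another cluster of DUSP5 differed by -0.85. Of all 23 dual specificity phosphatases 5 were lower and 2 higher, the higher ones being DUSP16 and DUSP9 (4.64 in HepG2 and 3.30 in HCT116), while DUSP1 differed by -0.61 and, on the MP-HX arrays, by 1.5 (limma adjusted p = 0.571). The ETS factor ETV4, a target of the pathway, was higher: it read 5.35 in HepG2 and 3.61 in HCT116. The median of this list was -0.44 on the MP-HX arrays, where EREG, EGR1, LIF and FOSL1 stood closer together or in the other order.

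Cytokine and interferon genes had members on both sides. Of 27 chemokine and interleukin genes 10 were higher and 3 lower. CCL20, a chemokine for T cells and dendritic cells, read 5.74 in HepG2 and -0.31 in HCT116, and IL18 read 1.04 in HepG2 and 4.09 in HCT116. Of 31 interferon response genes 5 were higher and 4 lower, beside 8.06% and 11.7% over all genes. BST2, which tethers budding virus, read 2.71 in HepG2 and -0.94 in HCT116, MX2 read 3.08 in HepG2 and -0.44 in HCT116, and HERC5, an ISG15 ligase, read -0.57 in HepG2 and 2.63 in HCT116. TLR3, the double-stranded RNA sensor, read -1.41 in HepG2 and 2.15 in HCT116. In the TGF-beta and BMP list 4 of 19 were higher and 3 lower, with FST, the activin antagonist follistatin, at 4.18 in HepG2 and 0.32 in HCT116 and FSTL1 at -1.04 in HepG2 and 2.48 in HCT116.

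Cell division and replication genes leaned toward HCT116 on the vehicle arrays, with 1 of 43 higher in HepG2 and 9 lower, 35 below 0 and a median of -0.60 beside -0.14 over all genes. By limma 2 were higher and 8 lower. MCM6, a subunit of the replicative helicase, read 3.68 in HepG2 and 5.40 in HCT116. MKI67 and TOP2A, markers of cycling cells, differed by -0.75 and 0.79. The median of the list was 0.03 on the MP-HX arrays. Of 45 ribosomal protein genes 0 were higher and 8 lower (median -0.42). Of 9 common reference genes 0 were higher and 2 lower (PPIA and EEF1A1), with 8 below 0 and a median of -0.63. The reference genes thus leaned toward HCT116 about as far as the cell division genes. The median over all genes was -0.14. Of 18 DNA repair and p53-linked genes 3 were higher and 4 lower (median -0.31). SESN1 was higher, with 3.35 in HepG2 and 2.15 in HCT116. The proapoptotic PMAIP1 read 0.32 in HepG2 and 3.94 in HCT116, and SFN, 14-3-3 sigma, read 3.76 in HepG2 and 6.76 in HCT116.

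Markers of other cell types gave 5 of 9 blood genes past 2-fold, 4 higher in HepG2 and 1 lower. The lower gene was S100A9, with 0.29 in HepG2 and 1.82 in HCT116 (limma adjusted p = 0.00919). LYZ, lysozyme, read 8.15 in HepG2 and -0.32 in HCT116 and differed by 5.19 in another cluster, and CD68 read 5.72 in HepG2 and 3.09 in HCT116, while the T cell gene CD2 read 0.51 in HepG2 and 0.37 in HCT116. Of 10 stromal and endothelial genes, LYVE1 was higher (2.54 in HepG2 and -1.59 in HCT116) and DES lower (0.91 in HepG2 and 2.50 in HCT116), with a difference of -0.14 in another cluster. Of 7 bile duct genes 2 were higher, SPP1 (8.07 in HepG2 and 0.28 in HCT116) and ANXA4, and 2 lower, EPCAM and KRT7, of which KRT7 missed the limma threshold (adjusted p = 0.235).

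MicroRNA genes were measured through clusters over their hairpin transcripts, so mature microRNAs were not measured. Of 1072 such genes 46 were at least 2-fold higher in HepG2 and 57 lower. Both shares were below the 8.06% and 11.7% over all genes. In the list of 35 genes with known tissue patterns 2 were higher and 6 lower, and 20 lay below the median on both arrays. Among the 6 lower is MIR31HG, which is a long noncoding RNA gene. MIR221 read 0.46 in HepG2 and 3.68 in HCT116. MIR222, its neighbour on the X chromosome, read -0.72 in HepG2 and 1.33 in HCT116. MIR200C and MIR141, an epithelial pair on chromosome 12, read -0.86 and -0.96 in HepG2, and 1.15 and 0.66 in HCT116. MIR196B, which lies in the HOXA cluster and is outside this list, read -0.43 in HepG2 and 2.58 in HCT116. MIR192, abundant in liver and gut, was toward HepG2, with 1.96 in HepG2 and -0.33 in HCT116. All of these passed limma. Their mature RefSeq sequences are shown to set their seeds side by side, with bases 2 to 8, the seed, in capitals (RefSeq, GRCh38.p14).
hsa-miR-221-3p: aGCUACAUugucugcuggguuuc
hsa-miR-222-3p: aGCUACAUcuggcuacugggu
hsa-miR-200c-3p: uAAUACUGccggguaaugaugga
hsa-miR-141-3p: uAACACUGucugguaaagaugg
hsa-miR-196b-5p: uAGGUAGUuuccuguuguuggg
hsa-miR-192-5p: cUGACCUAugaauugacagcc
Both members with the seed GCUACAU were lower in HepG2, by 3.22 and 2.05 on the log2 scale, and both neighbours on chromosome 12 by 2.01 and 1.62.

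Long noncoding RNA genes were higher in 88 and lower in 80 of 1408, also smaller shares than the 8.06% and 11.7% over all genes. HULC, a transcript described in liver cancer, read 3.73 in HepG2 and -1.34 in HCT116. LINC00261, transcribed beside FOXA2, read 1.97 in HepG2 and -1.69 in HCT116. LINC01106 was furthest below, with 0.03 in HepG2 and 4.93 in HCT116.

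The MP-HX arrays gave another reading of the line difference from other RNA pools. Across the 14884 genes the differences of the 2 pairs had r = 0.875, a description over genes, which are not independent replicates. Of the 450 genes at least 4-fold higher in HepG2 on the vehicle arrays, 440 were at least 2-fold higher on the MP-HX arrays, and of the 406 lower, 376 were at least 2-fold lower. All 229 genes at least 8-fold higher were again at least 2-fold higher, and 166 of 167 lower genes at least 2-fold lower. The overlap was smaller where the same threshold was asked of both pairs. At 8-fold it held for 176 of 229 higher and 100 of 167 lower genes. At 4-fold it held for 346 of 450 and 259 of 406, and at 2-fold for 865 of 1200 and 933 of 1739. Some genes departed widely. MT1B, a metallothionein, lay below the median on both vehicle arrays, at -1.52 in HepG2 and -1.65 in HCT116. It differed by 0.13 on the vehicle arrays and by 9.01 on the MP-HX arrays, and its close paralogs may cross-hybridise. IGFBP1, a hepatic binding protein of insulin-like growth factors, differed by 4.18 and 7.84. EREG, at -6.13 on the vehicle arrays, stood at -2.49 with MP-HX, where HepG2 read 4.06 and HCT116 6.55. LIF, a cytokine of the interleukin 6 family, differed by -2.85 and 0.22, and the long noncoding RNA UCA1 by -2.20 and 0.28. Treatment dose differs between the lines, so dose and line cannot be told apart in the MP-HX pair.

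**Figure D4:**
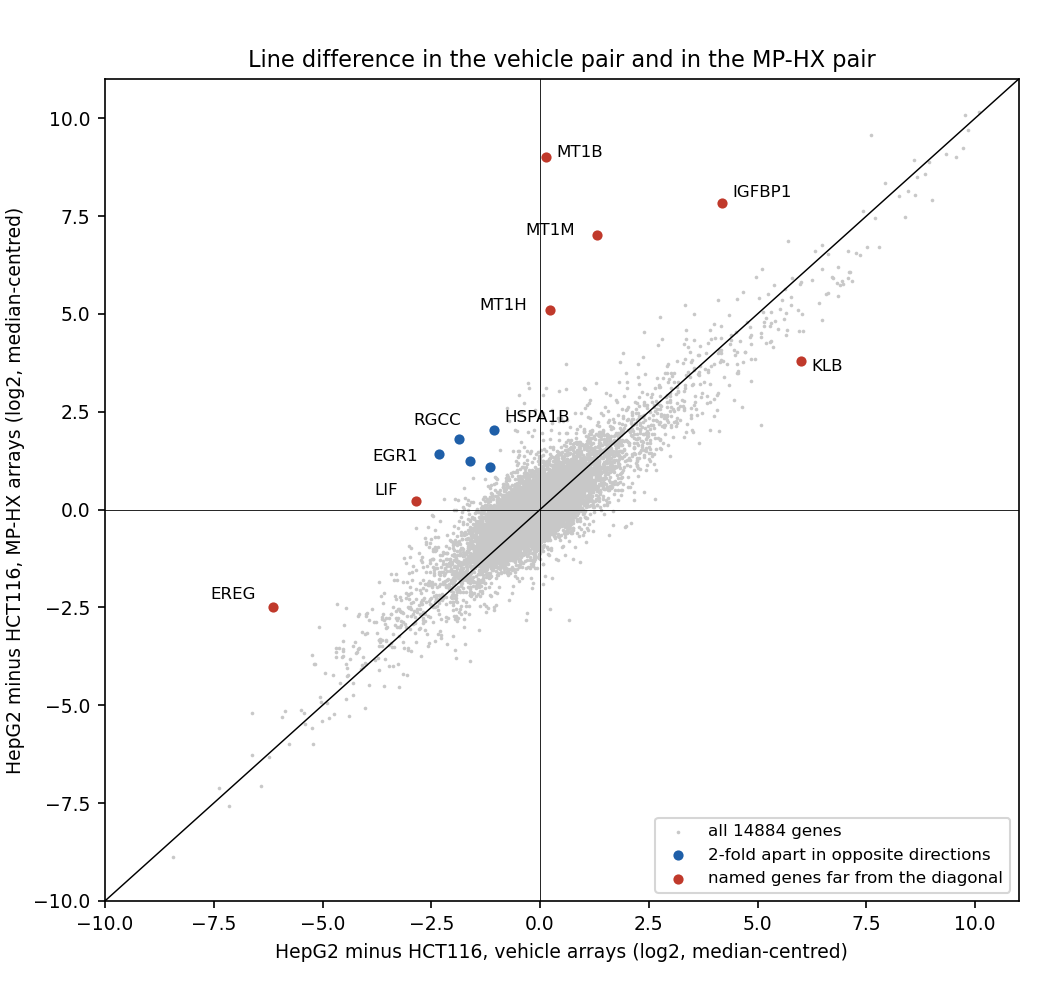
Difference between the lines (HepG2 minus HCT116, log2) on the vehicle arrays (horizontal axis) and on the MP-HX arrays (vertical axis), 1 point per gene, with the line of equality. Most genes follow the line (r = 0.875); MT1B, MT1M and MT1H lie far above it, and 5 genes in blue are 2-fold apart in opposite directions.

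By chromosome, the genes compared were the 11356 above the array median on at least 1 vehicle array. Of these, 40.2% had a difference above 0, and the median difference of all 11356 was -0.18. Relative to it, chromosome 20 stood highest (0.32 over 340 genes, 60% of them above 0), followed by chromosome 2 (0.25 over 723 genes) and chromosome 14 (0.18 over 353 genes). Chromosome 8 stood lowest, at -0.18 over 400 genes, with 29.25% above 0. The MP-HX arrays gave 0.37, 0.25, 0.18 and -0.185 for these 4 chromosomes, and there chromosome 16, at 0.24, stood above chromosome 14. Without the filter the medians were 0.06, 0.04, -0.03 and -0.26, against -0.14 over all genes. Chromosome 19 was then lowest, at -0.27. Copy number was not measured in this series.

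**Figure D5:**
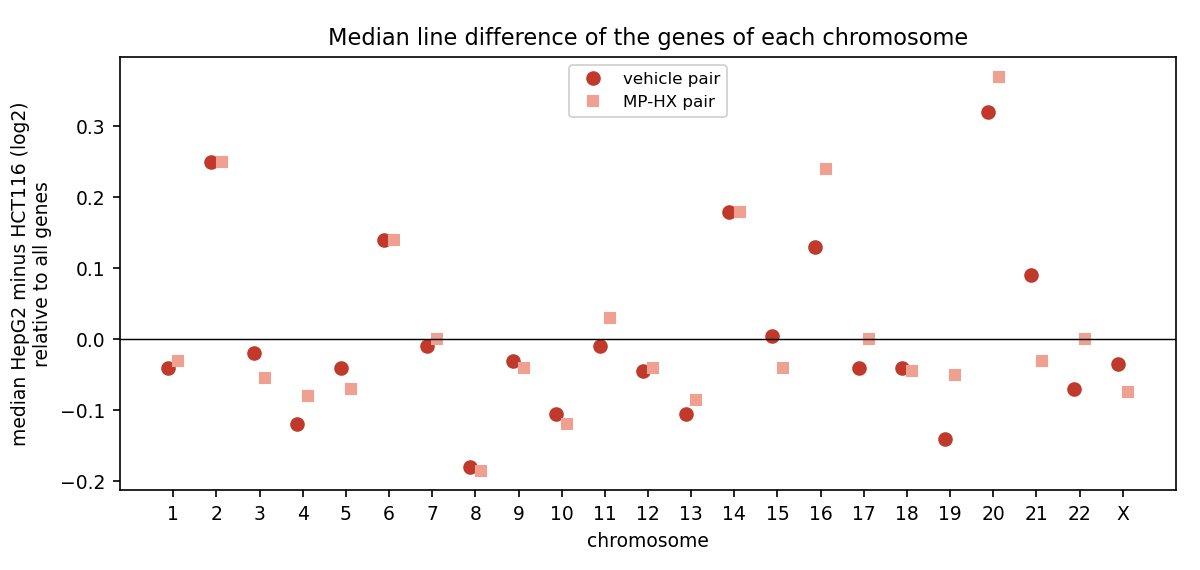
Median difference between the lines (HepG2 minus HCT116, log2) of the genes of each chromosome, relative to the median of all genes above the array median, for the vehicle pair (circles) and the MP-HX pair (squares). Chromosome 20 stands at 0.32 and chromosome 8 at -0.18 in the vehicle pair.

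Neighbouring genes sometimes differed together. Runs of at least 3 consecutive named genes at least 4-fold apart in 1 direction were sought after the values had been seen, with gene order from the RefSeq table of GRCh38.p14. Besides HOXB5 to HOXB9 and the fibrinogen genes, 6 genes on chromosome 7 (CASD1, PEG10, PON1, PON3, PON2 and ASB4) were higher in HepG2 by 2.06 to 5.11, although PON1 differed by 0.59 on the MP-HX arrays. PEG10 is imprinted, and the paraoxonases PON1 and PON3 are secreted by the liver. On chromosome 5, ARSB, DMGDH, BHMT2 and BHMT were higher by 2.09 to 4.09, with DMGDH at -0.35 on the MP-HX arrays, of which the last 3 encode enzymes of betaine and homocysteine metabolism. On chromosome 1, LPAR3, MCOLN2, MCOLN3 and DNAI3 were lower, with differences between -3.57 and -2.26.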

How the data were processed

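RNA of each group was hybridised to 1 Affymetrix HuGene 2.0 ST array. The deposited values are log2 signals with 2 decimals, made by the authors with the Affymetrix software named in their processing notes (Expression Console, GCOS and Transcriptome Analysis Console). The sources used here do not state how they were normalized or whether this was done jointly. Each array was centred on its median. Clusters were named where the platform annotation gave 1 symbol, and 32128 were unnamed. Where a gene had several clusters (779 genes), the one with the highest mean signal stood for it. The 2-fold threshold follows the methods of the study. Line differences over all 16098 named clusters were tested with limma 3.58.1 in R 4.3.3, with Benjamini-Hochberg adjustment and 1 residual degree of freedom. That residual is the difference between the responses of the lines to MP-HX, so p-values measure only the spread between these 4 arrays. The limma script was tested on simulated data. Tables were made in Python 3.11.15 with pandas 2.3.3. The number of arrays limits the precision. Named genes were the 15 furthest apart in each direction, up to 6 members of each of 37 lists with the largest differences, all markers and lineage regulators, the 6 microRNA and 6 long noncoding RNA genes furthest apart each way, up to 10 genes that departed on the MP-HX arrays, and the genes the study measured by RT-qPCR. Other list members were named for contrast after their values were seen. The members and lists were chosen with earlier results of these data known. Serpins were not analysed here. Alternatives were no centring, centring on named clusters, quantile normalization, 64 added to the linear signal, other fold thresholds, all clusters, the mean of the clusters of a gene, the MP-HX arrays, other limma settings and leaving out each array.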

Additional observations from a re-analysis of the deposited data

Results flagged for a closer look

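In 5 genes the lines stood at least 2-fold apart in opposite directions on the vehicle and the MP-HX arrays. With 1 array per group these differences between pairs were not tested, and dose differs between the lines. EGR1, an immediate early transcription factor, differed by -2.32 on the vehicle arrays (2.37 in HepG2 and 4.69 in HCT116) and by 1.41 with MP-HX (5.27 in HepG2 and 3.86 in HCT116), and its other cluster differed by -0.86 on the vehicle arrays. RGCC, a regulator of the cell cycle, differed by -1.86 on the vehicle arrays and by 1.8 with MP-HX. MIR3127 differed by -1.62 on the vehicle arrays (-0.44 in HepG2 and 1.18 in HCT116) and by 1.25 with MP-HX (0.76 in HepG2 and -0.49 in HCT116). HCFC1R1 differed by -1.16 and 1.10. HSPA1B, an inducible heat shock protein 70 gene with a near-identical paralog, differed by -1.06 (6.40 in HepG2 and 7.46 in HCT116) and by 2.03 with MP-HX (8.65 in HepG2 and 6.62 in HCT116).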

How the results depend on the processing

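The vehicle pair has no replicate, and the limma test rests on 1 residual degree of freedom. No paired analysis was possible because each group holds 1 array, so no replicate numbers pair arrays beyond treatment, which is a term of the model. Without that term limma called 1079 clusters higher and 1216 lower. Of 1265 clusters at least 2-fold higher in HepG2, the count was 436 with 64 added to the linear signal, 2467 at 1.5-fold, 464 at 4-fold and 3037 over all clusters. Of 1832 lower, it was 3053 without centring, 845 with 64 added, 3855 at 1.5-fold, 417 at 4-fold and 4015 over all clusters. The 1419 higher limma calls became 34 with 64 added, and between 256 and 494 with 1 array left out. The 1781 lower calls became 4170 without centring, 19 with 64 added, and between 268 and 378 with 1 array left out. The median of the hepatocyte markers, 7.09, was 4.69 with 64 added and 6.77 on the MP-HX arrays, and that of the colon markers, -0.33, was 0.0048 with 64 added. On the MP-HX arrays the sign turned for 28 of 301 named genes, and among the 246 past 2-fold for LIF (0.22), ERAP1 (-0.18), MCM5 (0.02), EGR1 (1.41), UCA1 (0.28) and DMGDH (-0.35). Of 246 named genes past 2-fold, between 194 (64 added) and 244 (mean of clusters) were still past it, and 210 on the MP-HX arrays. The causes were not tested.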

Other observations

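GABARAPL1, an autophagy gene of the RT-qPCR panel, stood past 2-fold between the lines, with a difference of -1.52 on the vehicle arrays. The replication genes MCM2, MCM10, GINS2 and RRM2 differed by -0.77, -0.74, -0.76 and -0.65 on the vehicle arrays, and by 0.88, -0.13, 0.88 and 0.22 on the MP-HX arrays. On the vehicle arrays the stress genes DDIT3, JUN, BBC3 and NDRG1 differed by 0.07, -0.22, -0.66 and -0.02.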
